A study of Mus musculus with 16 samples.

Results

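Ribosomal protein pseudogenes were followed in memory CD4+ T cells of the spleen by RNA-Seq. They are the genes whose symbol starts with Rpl or Rps and ends in -ps with or without a number, and whose estimated counts summed over all 16 samples reach at least 100. Of 56748 genes in the table, 322 had such a symbol and 131 of these reached the minimum, while 69 were at 0 in every sample. The members were thus chosen by their summed count, which is given here only as a description. The members closest to the limit were Rpl7a-ps10 and Rpl21-ps7, with 101.4 and 103.6 counts, and the nearest gene below it was Rps27a-ps1, with 90.0 counts.

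The 4 groups held 4 samples each. HP1α KO cells came from mice that lack Hp1a in the whole body (Hp1a-/-, from a floxed allele excised with CMV-cre), and their WT controls were Hp1a+/+ mice of the same litters. HP1γ KO cells came from mice homozygous for the floxed Hp1g allele that carry the Cd4-cre transgene, so that the deletion is driven in T cells, and their WT controls were floxed littermates without Cre, which means that the loss of HP1γ and the presence of Cre cannot be told apart. All mice were young adult, sex-matched littermates of lines kept on a mixed genetic background, and the cells were sorted by flow cytometry. The labels do not say which mouse gave which sample, so p-values measure the spread between these samples.

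Each sample held between 26694045 and 40199637 estimated counts. Cbx3, the gene of HP1γ, was between 45.4 and 49.3 CPM (counts scaled to the library size after TMM normalization) in HP1γ KO. In its WT controls it was between 73.4 and 91.9 CPM. Cbx5, the gene of HP1α, was between 23.0 and 29.2 CPM in HP1α KO and between 33.9 and 54.6 CPM in its WT controls. Cbx5 was between 19.7 and 29.7 CPM in HP1γ KO and between 26.9 and 37.2 CPM in HP1γ WT, so HP1α KO overlapped both groups of the other line. The 5 markers of CD4+ T cells summed to between 2692 and 3154 CPM in every sample. Markers of B cells summed to between 258 and 731 CPM and those of red cells to between 10.4 and 729 CPM.

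Ribosomal proteins are the protein part of the small (Rps) and large (Rpl) subunits of the ribosome, and their mRNAs are among the most abundant of any cell. Processed pseudogenes arise when an mRNA is reverse transcribed and inserted elsewhere in the genome, which leaves a copy without introns that usually lacks the promoter of its parent gene. Mammalian genomes hold many such copies of ribosomal protein genes, and a read from a copy can be hard to tell from a read of the parent. HP1α and HP1γ are heterochromatin proteins that bind methylated histone H3 and take part in gene silencing.

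The 131 pseudogenes descend by name from 51 parent genes. Rpsa had the most copies, 8, followed by Rpl17 with 7 and Rpl19 and Rps19 with 6 each, and 17 parents had a single one. The annotation describes 130 of the 131 as a single exon, 102 as processed pseudogenes and 24 as transcribed processed pseudogenes, whereas 4 (Rpl10-ps3, Rpl9-ps6, Rps18-ps6 and Rplp2-ps1) are listed as protein coding and Rps18-ps4 as a long non-coding RNA. They lie on 20 chromosomes, with 13 on the X. Aligned to the coding sequence of the parent, all but 2 of them gave a match, at a median identity of 98.9% (from 87.5% to 100%). An open reading frame at least as long as that of the parent was present in 60, and 13 had neither a mismatch nor a gap to the parent over the part aligned.

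Sequence shared with other genes is central to what can be measured for these genes. A window of 150 bases, the length of a read, was called copied where an identical stretch exists in a transcript of another gene. By this measure, 22 of the 131 members were copied in every window, 79 in some and 30 in none, with a median of 28.8% of the windows. Stretches of at least 150 bases at 98% identity or more were shared with another gene by 111 members and with the parent by 106.

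Some of the copies are identical to each other. Rpl35a-ps2, Rpl35a-ps3, Rpl35a-ps4 and Rpl35a-ps6 are copies of Rpl35a, a protein of the large subunit, and carry the same 333 bases at 4 places in GRCm39, each on the minus strand: Rpl35a-ps2 (ENSMUSG00000081214) at chr1:181069553-181069885, Rpl35a-ps3 (ENSMUSG00000067575) at chr17:29355946-29356278, Rpl35a-ps4 (ENSMUSG00000083424) at chr2:108705271-108705603 and Rpl35a-ps6 (ENSMUSG00000094664) at chr5:123393544-123393876. The first 300 bases of the shared sequence are printed because the largest difference between groups found below rests on 1 of these 4 loci. The sequence spans the whole coding sequence of Rpl35a, and the capital marks the 1 base that differs from it, G156A (counted from 1 at the start codon), which turns a lysine codon into another codon of lysine.
Rpl35a-ps2, -ps3, -ps4 and -ps6: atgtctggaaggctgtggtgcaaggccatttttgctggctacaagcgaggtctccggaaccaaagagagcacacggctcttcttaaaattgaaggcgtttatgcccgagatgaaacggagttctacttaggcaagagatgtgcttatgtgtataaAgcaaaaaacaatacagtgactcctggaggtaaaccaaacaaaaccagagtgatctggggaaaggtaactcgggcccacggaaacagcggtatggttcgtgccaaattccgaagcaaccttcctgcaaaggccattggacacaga

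Rps19-ps1 (ENSMUSG00000096681, chr14:53451187-53451624, plus strand) and Rps19-ps2 (ENSMUSG00000094974, chr14:53140250-53140687, plus strand) are a second such pair, copies of Rps19, a protein of the small subunit. They share 438 bases without a difference. Against the Rps19 coding sequence they carry 8 substitutions, C6T, G76A, G185C, G339A, G369A, G372A, C390T and G406A, and the last 300 bases are printed with the 6 that fall there in capitals.
Rps19-ps1 and -ps2: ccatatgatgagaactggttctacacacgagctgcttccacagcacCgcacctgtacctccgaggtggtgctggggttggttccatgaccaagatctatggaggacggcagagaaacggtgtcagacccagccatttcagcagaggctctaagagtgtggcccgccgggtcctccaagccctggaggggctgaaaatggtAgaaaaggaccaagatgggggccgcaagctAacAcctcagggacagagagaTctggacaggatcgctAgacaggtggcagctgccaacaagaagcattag

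Rps7-ps3 (ENSMUSG00000095597, chrX:151692535-151693116, minus strand) is a copy of Rps7, a protein of the small subunit, and its annotated 582 bases differ from the parent by 3 substitutions, T26G, G48A and G123T. They are shown in 3 stretches of parent and pseudogene, with the differing base in capitals, because these few bases are all that separates a read of Rps7-ps3 from a read of Rps7. Of its windows, 71.6% are copied elsewhere, and it shares sequence with Rps7 and with the predicted genes Gm9493 and Gm6252.
Rps7 around base 26: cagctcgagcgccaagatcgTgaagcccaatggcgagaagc
Rps7-ps3 around base 26: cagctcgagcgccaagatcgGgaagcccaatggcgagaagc
Rps7 around base 48: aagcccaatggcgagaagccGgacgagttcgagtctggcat
Rps7-ps3 around base 48: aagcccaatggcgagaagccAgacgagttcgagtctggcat
Rps7 around base 123: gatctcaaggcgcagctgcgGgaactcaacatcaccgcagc
Rps7-ps3 around base 123: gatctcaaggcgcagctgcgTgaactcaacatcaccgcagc

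All-or-none patterns were looked for first. A member was described as all-or-none by sample where at least 1 sample had 3 counts or fewer and at least 1 other had 30 or more. This held for 15 of the 131 members (11.5%), for 4 of 142 other genes with a symbol ending in -ps and the same minimum (2.82%) and for 604 of all 16201 genes that reached the minimum (3.73%). These sets were not matched for level, and the members had a median of 0.884 CPM. Since the members were named for such patterns, the counts are a description. A count of 0 allows up to 3 counts, that is between 7.46e-06% and 1.12e-05% of a sample, and this limit covers counting error only.

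No member was all-or-none by line, meaning at 3 counts or fewer in all 8 samples of 1 line and at 30 or more in at least 4 of the other, as against 2 of the 16201 genes. One member, Rpl35a-ps3, was all-or-none by genotype within a line, with every HP1γ KO sample at 0 and every HP1γ WT sample above 30 counts, and it was the only such gene among the 16201. Of the other members, 26 did not reach 30 counts in any sample and 51 had at least 30 in every sample.

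**Figure D1:**
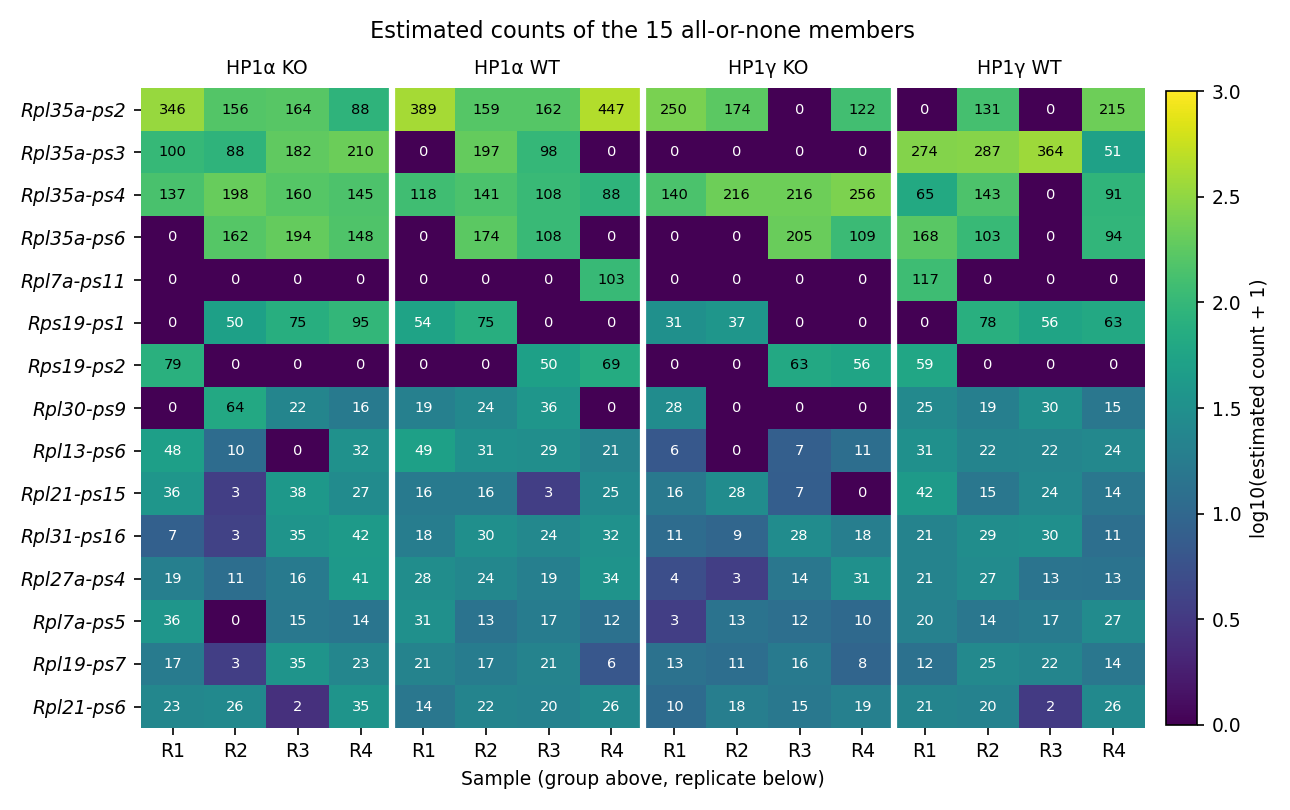
Estimated counts (printed in each cell, rounded to whole numbers, and coloured by log10 of the count + 1) of the 15 members that were all-or-none by sample, in rows, for the 16 samples, in columns by group and replicate. The 4 identical Rpl35a pseudogenes and Rps19-ps1 and -ps2 switch between 0 and at least 31.2 counts, and Rpl35a-ps3 is at 0 in the 4 HP1γ KO samples and in HP1α WT replicates 1 and 4.

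The members with the clearest contrast between samples were those copied in every window. Of the 15 all-or-none members, 7 had every window copied, which is 7 of the 22 members of that kind, and the other 8 were spread over 6 of the 79 members with some windows copied and 2 of the 30 with none. The 7 had the highest peak counts, from 78.7 in Rps19-ps2 to 447 in Rpl35a-ps2, and no value of theirs lay between 3 and 30 counts. The other 8 peaked between 34.9 and 64.1 counts and lay between 3 and 30 counts in 8 to 14 of the 16 samples, so that a low count in 1 sample is a smaller step there.

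Rpl35a-ps3 had the following counts. In HP1α KO it had 100, 87.9, 182 and 210 counts in replicates 1 to 4. In HP1α WT it had 0, 197, 98.3 and 0 counts, and in HP1γ WT 274, 287, 364 and 50.8 counts. In HP1γ KO it had 0 counts in all 4 samples. The 2 groups of the HP1γ line did not overlap, whereas HP1α WT held both 0 and high values.

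Rpl35a-ps2 was at 0 in HP1γ KO replicate 3 and in HP1γ WT replicates 1 and 3, and had between 88.5 and 447 counts in the other 13 samples. Rpl35a-ps6 was at 0 in 6 samples, which belonged to all 4 groups, and had between 93.6 and 205 counts in the other 10. Rpl35a-ps4 was at 0 in HP1γ WT replicate 3 and had between 64.7 and 256 counts elsewhere. In that sample the other identical copies were at 0 as well, and Rpl35a-ps3 held its highest count of all, 364.

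Summed over the 4 identical copies, the level was much steadier than that of any single copy. The sum was 17.5 ± 2.93 CPM in HP1α KO, 16.9 ± 0.626 CPM in HP1α WT, 13.4 ± 0.849 CPM in HP1γ KO and 14.5 ± 2.7 CPM in HP1γ WT (mean ± SD, n = 4 each). Over all 16 samples it ranged from 11.1 to 20.6 CPM, a 1.86-fold range with a coefficient of variation of 16.2%. The single copies had coefficients of variation between 46.5% and 106%, and the parent Rpl35a 11.5%. All 4 copies were above 0 in 7 samples, while 3 samples had 1 copy at 0, 5 had 2 at 0 and 1 had 3 at 0. Gm10243, a predicted gene that contains the same 333 bases, was between 0.0733 and 0.985 CPM.

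Rps19-ps1 and Rps19-ps2 gave the sharpest form of the pattern. In each of the 16 samples exactly 1 of the 2 was above 0. Rps19-ps1 carried the counts in 10 samples and Rps19-ps2 in 6, and both kinds were found in every group. The sum was between 31.2 and 94.9 counts per sample, or 1.15 to 2.46 CPM, with a coefficient of variation of 19.0% against 84.7% and 135% for the single genes. Relative to the parent Rps19 the sum was between 0.187% and 0.344% in CPM.

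**Figure D2:**
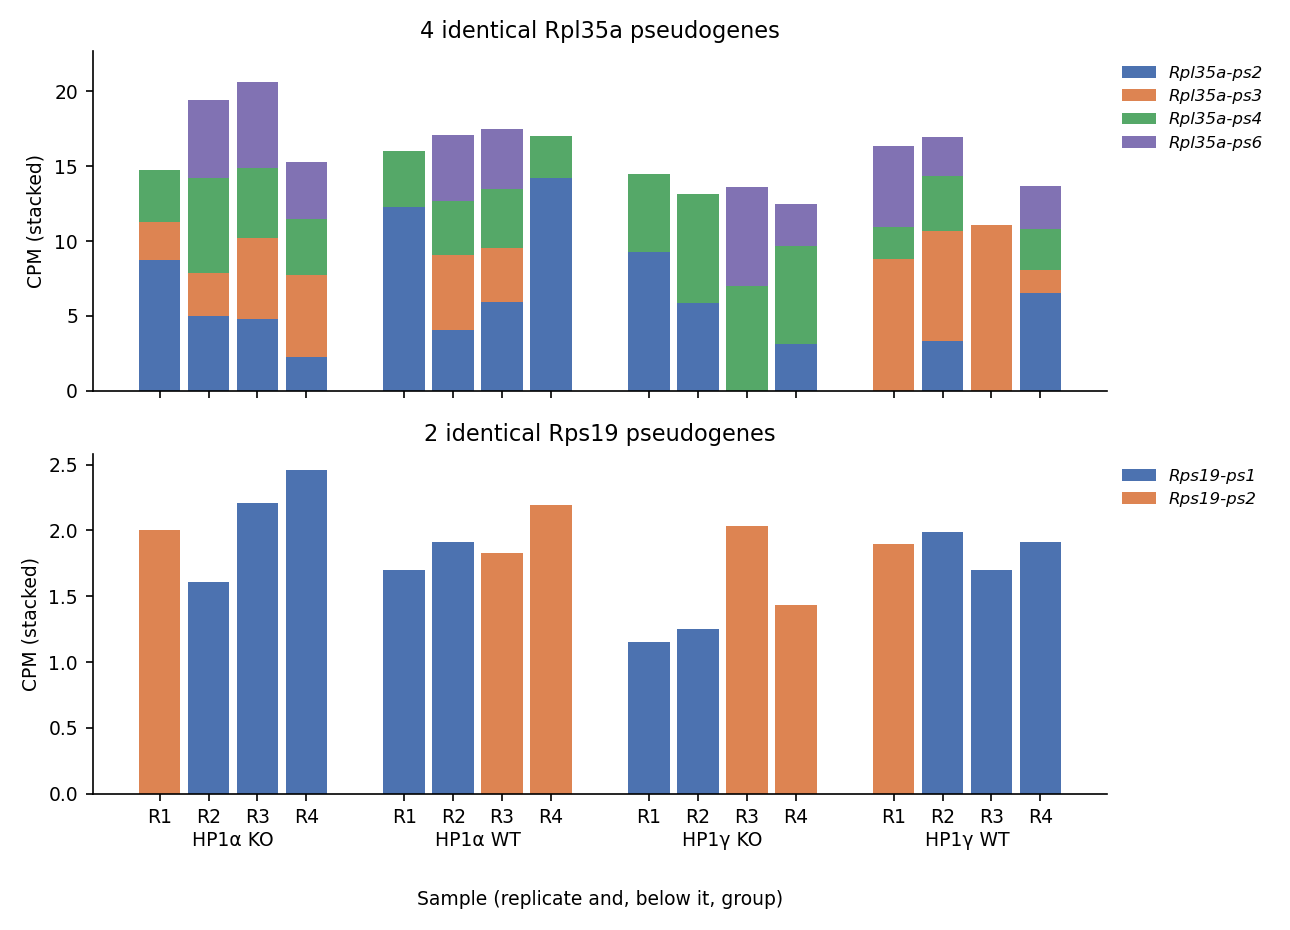
CPM of the identical pseudogenes in each of the 16 samples, stacked so that the height of a bar is their sum: the 4 Rpl35a copies above and the 2 Rps19 copies below. The sums lie between 11.1 and 20.6 CPM and between 1.15 and 2.46 CPM, while the colours that make up a bar change from sample to sample, with a single colour in each Rps19 bar.

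Rpl7a-ps11 (ENSMUSG00000067147, chrX:165637207-165638007, plus strand), a copy of Rpl7a of the large subunit, had 117 counts in HP1γ WT replicate 1 and 103 counts in HP1α WT replicate 4, and was at 0 in the other 14 samples. Its 801 bases differ from the Rpl7a coding sequence by A186G and A747C, every window is copied in another gene, and it shares sequence with 12 genes. Both high samples were WT, but the 6 other WT samples were at 0. Rpl30-ps9, a copy of Rpl30 on the X chromosome, was at 0 in 5 samples, of which 3 were HP1γ KO, and reached 64.1 counts in HP1α KO replicate 2. Rpl13-ps6 was at 0 in HP1α KO replicate 3 and HP1γ KO replicate 2 and otherwise between 5.72 and 49.2 counts. Rpl21-ps15 was at 0 in HP1γ KO replicate 4 and at no more than 3 counts in 2 further samples, with a highest count of 42.5.

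The levels of the pseudogenes were low next to those of their parents. The mean over 16 samples was between 0.182 and 103 CPM with a median of 0.884 CPM, and 65 members had a mean of at least 1 CPM. Per length, in TPM (a unit that divides the counts by the length of the transcript), the members ranged from 0.44 to 341 with a median of 4.73, and the parents from 989 to 7700 with a median of 2070. As a share of the parent in TPM, the median member was at 0.208%, 36 members were above 1% and 1 was above 10%.

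That one was Rpl17-ps8 (ENSMUSG00000082035, chrX:95528465-95529085), a copy of Rpl17 of the large subunit inside Heph on the same strand, with a mean of 341 TPM or 12.6% of Rpl17. It was also the most abundant member in CPM, between 84.7 and 144 CPM, followed by Rps7-ps3, Rps6-ps4, Rps23-ps1 and Rpsa-ps10 with means of 55.8, 35.5, 23.7 and 22.9 CPM. After Rpl17-ps8, the largest shares of the parent in TPM belonged to Rps7-ps3 (9.61%), Rps23-ps1 (5.93%), Rpl31-ps8 (4.66%) and Rps27a-ps2 (3.87%). Rps23-ps1, Rpl31-ps8 and Rps6-ps4 have no mismatch to their parents and every window copied, so that a read from within them has the same letters in the parent.

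The share of the parent went with the amount of copied sequence. It had a median of 1.84% in the 22 members with every window copied, 0.208% in the 79 with some and 0.0888% in the 30 with none. In the 13 members without a mismatch or gap it was between 0.924% and 5.93%. Across the 131 members, Spearman's rho between the share and the percentage of copied windows was 0.664, a description only, since members of 1 parent share sequence and reads. How the reads were divided between a copy and its parent was not tested.

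**Figure D3:**
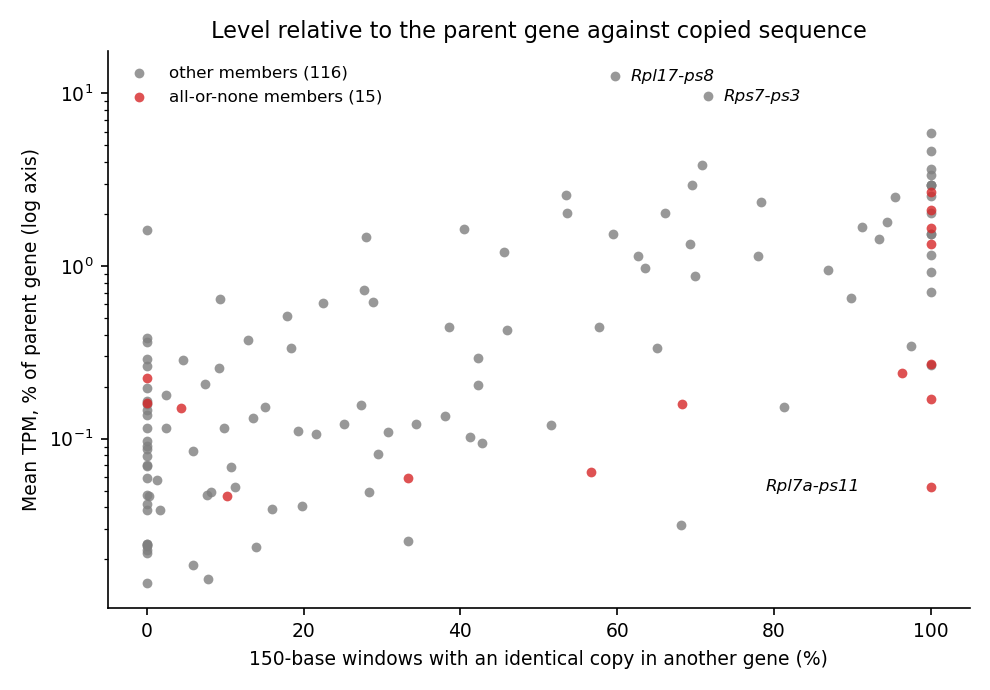
Mean TPM of each of the 131 pseudogenes as a percentage of the mean TPM of its parent (log axis) against the percentage of its 150-base windows that have an identical copy in another gene. The 15 all-or-none members are in red, and the medians rise from 0.0888% with no window copied to 1.84% with every window copied, while Rpl17-ps8 (12.6%) and Rps7-ps3 (9.61%) stand above the rest.

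Loss of HP1α was compared with WT littermates to ask whether any of these copies respond to it. None was called at an adjusted p (edgeR quasi-likelihood test, Benjamini-Hochberg over all genes) under 0.05 with a log2 fold change beyond 1, and 0% of the 14881 genes tested were called. Of the 131 members 116 passed the filter on low counts. An unadjusted p under 0.05 was seen for 3 of them (2.59%, against 4.27% of all genes), and DESeq2 called 0 as well (2 of 26997 genes). In sorted bulk samples such as these, a change in the share of a cell type and a change in RNA per cell cannot be told apart. The median log2 fold change of the 116 was 0.12, with 79 above 0, beside a median of 0.00 over all genes and 50.9% of them above 0. It was 0.04 without HP1α KO replicate 3 and 0.08 without HP1α WT replicate 2. Of all samples, HP1α KO replicate 3 had the highest sums of markers of B cells (731 CPM) and of myeloid cells (117 CPM). Its sum of the ribosomal protein genes (85646 CPM) was the highest too, and the part of any of these in the shift was not tested. With samples left out, 2 to 8 members had an unadjusted p under 0.05. There were 8 of 119 without HP1α KO replicate 1 (601 of 15129 genes) and 2 of 119 without HP1α KO replicate 3 (634 of 15050 genes). There were 5 of 120 without HP1α KO replicate 4 (544 of 15069 genes) and 5 of 121 without HP1α WT replicate 4 (976 of 15183 genes). For the list of 79 cytosolic ribosomal protein genes the median was 0.06, with 78 above 0 and 0 at an adjusted p under 0.05.

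Loss of HP1γ gave 1 call among the 112 members that passed the filter, Rpl35a-ps3, while 0.234% of the 14975 genes were called and 0.0401% were called lower in KO. Its adjusted p was 0.0150 (edgeR), and with every KO sample at 0 the mean of the WT samples was at least 74.5-fold higher than 3 counts in each KO sample. Rpl35a-ps3 passed the filter on low counts only through the WT samples. The copies of identical sequence were not called. The log2 fold change was 0.91 for Rpl35a-ps2 (adjusted p = 0.822), 1.63 for Rpl35a-ps4 (adjusted p = 0.399) and -0.18 for Rpl35a-ps6 (adjusted p = 0.97), by edgeR. With the 4 identical copies summed to 1 gene, an alternative chosen after seeing the data, the log2 fold change was -0.09 (SE 0.13, edgeR adjusted p = 0.828) and 0 members were called.

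The parent Rpl35a had a log2 fold change of -0.24 in the same comparison (edgeR adjusted p = 0.359). The members as a group lay to the same side. Their median log2 fold change was -0.18, with 90 of 112 below 0, and 9 of them had an unadjusted p under 0.05 (8.04%, against 11.9% of all genes). For the 79 ribosomal protein genes the median was -0.20 (from -0.28 to -0.12), all 79 were below 0, 72 had an unadjusted p under 0.05 and 0 an adjusted p under 0.05, beside a median of 0.00 over all genes. Without HP1γ WT replicate 1 the median of the members was -0.10, and 2 of 114 had an unadjusted p under 0.05 (1317 of 15323 genes). Without HP1γ KO replicate 1 there were 4 of 118 (1246 of 15266 genes), and without HP1γ WT replicate 3 there were 12 of 117 (1956 of 15321 genes). Markers of red cells summed to 479 ± 298 CPM in HP1γ KO and 174 ± 159 CPM in WT (mean ± SD, n = 4 each), with overlapping ranges, and their part in this shift was not tested. Among the abundant members, Rpl17-ps8 had a log2 fold change of -0.16 (Rpl17: -0.22) and Rps6-ps4 one of -0.22 (Rps6: -0.28), neither past the adjusted threshold (edgeR adjusted p = 0.413 and 0.402).

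Rpl13-ps6 showed the next largest decrease among members, a log2 fold change of -1.94 (SE 0.56, edgeR adjusted p = 0.251). It had 5.72, 0, 7.2 and 11.2 counts in the HP1γ KO samples and between 21.7 and 31.1 in the WT samples, so the groups did not overlap, and DESeq2 called it (adjusted p = 0.0498). It was called in 0 of the 8 fits that each left out 1 sample. Rpl35a-ps3 was called in all 8, and Rpl30-ps9 in the 1 without HP1γ KO replicate 1 (edgeR adjusted p = 0.0366).

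The WT samples of the 2 lines were compared to see how far copies differ between lines without a deletion. Rps7-ps3 was the 1 member called of 117 tested, against 1.90% of 14804 genes called and 0.317% called higher in the HP1α line. It was at 169, 82.7, 89.9 and 23.6 CPM in HP1α WT and at 25.6, 21.8, 19.1 and 20.8 CPM in HP1γ WT. Of the HP1α WT samples, 3 lay above all HP1γ WT samples and replicate 4 lay within them, so the groups overlapped. The log2 fold change was 2.05 (SE 0.43, edgeR adjusted p = 0.0158), and the adjusted p was 0.0513 without HP1γ WT replicate 2. The median of the 117 members was 0.12, beside 0.02 over all genes and 0.06 for the ribosomal protein genes, and it was 0.07 without HP1γ WT replicate 2.

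In the KO samples the difference of Rps7-ps3 was sharper. Between the KO groups, here and below, the line, the isoform lost and the way it was deleted cannot be told apart. It was at 96.5, 92.3, 94.3 and 83.8 CPM in HP1α KO and at 18.5, 15.2, 19.5 and 19.8 CPM in HP1γ KO. The groups did not overlap, and the means were 5.02-fold apart (log2 fold change 2.30, SE 0.09, edgeR adjusted p = 4.87e-07). The adjusted p stayed between 1.08e-06 and 8e-06 when each sample was left out in turn. Against the WT littermates of the same line the test did not pass for this gene, with log2 fold changes of 0.01 (edgeR adjusted p = 1.0) for HP1α and -0.23 (edgeR adjusted p = 0.449) for HP1γ.

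The parent Rps7 differed far less. It was higher in HP1α KO than in HP1γ KO (log2 fold change 0.23, SE 0.07, edgeR adjusted p = 0.0266), and between the WT groups its log2 fold change was -0.09 (edgeR adjusted p = 0.575). Rps7 was between 894 and 1052 CPM in HP1α KO, 851 and 1028 in HP1α WT, 762 and 843 in HP1γ KO and 853 and 1096 in HP1γ WT. Rps7-ps3 amounted to 8.96% to 10.7% of the parent's CPM in HP1α KO and to 1.99% to 2.56% in the HP1γ line, and in HP1α WT to 19.9% in replicate 1, 9.42% and 9.72% in replicates 2 and 3 and 2.29% in replicate 4. Gm9493, which shares sequence with Rps7-ps3, was lowest, at 2.24 CPM, in the sample where Rps7-ps3 was highest, and highest, at 8.43 CPM, in HP1α WT replicate 4. The other samples did not all follow this. HP1γ KO replicate 2, the lowest in Rps7-ps3 at 15.2 CPM, had 4.95 CPM of Gm9493, and HP1α KO replicate 3 had 94.3 and 6.09 CPM. Gm6252 was between 0.707 and 1.71 CPM over all samples. Whether reads move between these genes was not tested. Within 3 Mb on either side of Rps7-ps3 on the X chromosome, 0 of 30 genes tested between the WT groups were called and 1 of 31 between the KO groups, Alas2, an enzyme of haem synthesis in red cell precursors, which was lower in HP1α KO (log2 fold change -3.75, edgeR adjusted p = 0.00888). The sum of the 3 markers of red cells, of which Alas2 is one, was 66.6 ± 49.2 CPM in HP1α KO and 479 ± 298 CPM in HP1γ KO (mean ± SD, n = 4 each), and the part of red cells in this call was not tested. The annotation used here places an exon of a predicted gene, Gm61310, over Rps7-ps3 on the same strand, and reads from the overlap cannot be told apart.

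**Figure D4:**
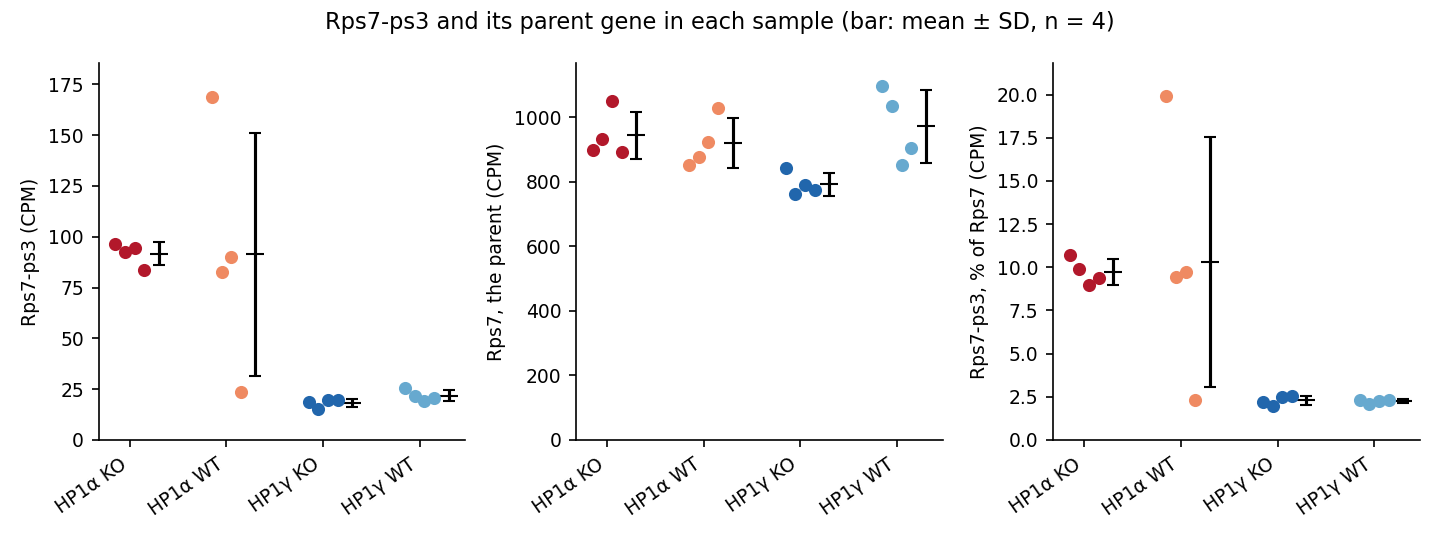
Rps7-ps3 (left, CPM), its parent Rps7 (middle, CPM) and their ratio in CPM as a percentage (right) in each sample of the 4 groups, with the mean and SD of 4 samples beside the points. Rps7-ps3 is between 83.8 and 96.5 CPM in HP1α KO and at 25.6 CPM or less in all 8 samples of the HP1γ line, and HP1α WT spans 23.6 to 169 CPM, while Rps7 is between 762 and 1096 CPM in all 16 samples.

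Between the KO groups 5 of 116 members were called (4.31%), against 4.33% of 15020 genes, and all 5 were higher in HP1α KO, where 0.499% of genes were called in that direction. Besides Rps7-ps3 they were Rpl35a-ps3, Rpl39-ps, Rpl3-ps2 and Rpsa-ps4. In HP1γ KO, Rpl35a-ps3 was at 0, Rpl39-ps had at most 8.13 counts, Rpl3-ps2 at most 6.7 and Rpsa-ps4 between 3.46 and 13.2. These 4 passed the filter on low counts through HP1α KO, where they were high. The shared direction is thus partly set by the filter and is a description only. With at least 10 counts in every sample only Rps7-ps3 was called, against 471 of 13296 genes. Rpl35a-ps3 was at least 41.8-fold higher in HP1α KO than 3 counts in each HP1γ KO sample (edgeR adjusted p = 0.000582). The 4 identical Rpl35a copies summed had a log2 fold change of 0.36 (SE 0.12, edgeR adjusted p = 0.0461). With them and the Rps19 pair summed, 4 of 113 members were called, against 651 of 15017 genes.

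The other called members were weakly expressed. Rpl39-ps (chr15:102543473-102543623), a copy of Rpl39 of the large subunit, was at 0.429, 0.482, 0.559 and 0.491 CPM in HP1α KO and at 0.111, 0.202, 0.258 and 0.154 CPM in HP1γ KO (log2 fold change 1.39, SE 0.35, edgeR adjusted p = 0.0134). Rpl3-ps2 (chrX:73214259-73215472), a copy of Rpl3 of the large subunit, was between 0.354 and 0.559 CPM and between 0.129 and 0.236 CPM (log2 fold change 1.25, SE 0.36, edgeR adjusted p = 0.0233). Rpsa-ps4 (chr11:32988816-32989703), a copy of Rpsa of the small subunit, was between 0.388 and 0.735 CPM and between 0.111 and 0.438 CPM, so that its groups overlapped (log2 fold change 1.24, SE 0.43, edgeR adjusted p = 0.0482). Of the 739 windows of Rpsa-ps4, 0 are copied in another gene. Rpl39-ps is 151 bases long and holds only 2 windows, and it differs from Rpl39 by 1 mismatch over the 150 bases aligned. Rpl3-ps2 passed the threshold in 4 and Rpsa-ps4 in 1 of the 8 fits that left out a sample.

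At an adjusted p under 0.05 without a minimum fold, 24 of the 116 members differed between the KO groups (20.7%, against 32.8% of all genes), 23 of them higher in HP1α KO (19.8%, against 16% of all genes). The one that was lower was Rps12-ps26, a copy of Rps12 without copied windows, at 0.206 to 0.450 CPM in HP1α KO and 0.517 to 0.768 CPM in HP1γ KO (log2 fold change -0.99, SE 0.33, edgeR adjusted p = 0.0402). Rps12-ps26 was called lower with RLE factors (log2 fold change -1.01, edgeR adjusted p = 0.0384). It was also called without HP1α KO replicate 2 and without HP1γ KO replicate 3, so the direction of the calls depends on the processing. Among the abundant members that were higher were Rps23-ps1 (log2 fold change 0.64, edgeR adjusted p = 0.00415), Rpl31-ps8 (0.56, edgeR adjusted p = 0.0146), Rps6-ps4 (0.43, edgeR adjusted p = 0.00256) and Rpl17-ps8 (0.38, edgeR adjusted p = 0.0213).

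The parents lay to the same side. All 79 ribosomal protein genes were higher in HP1α KO at an adjusted p under 0.05, with a median log2 fold change of 0.34 (from 0.22 to 0.50), and the median of the 116 members was 0.44, with 106 above 0, beside 0.01 over all genes. The parents of the 4 abundant members had log2 fold changes of 0.29 (Rps23), 0.41 (Rpl31), 0.38 (Rps6) and 0.33 (Rpl17). The member minus its parent gave a median of 0.11 on the log2 scale, and 95 of the 116 lay within 0.5 of the parent. These genes share reads and are not independent of each other. Markers of B cells summed to between 395 and 731 CPM in HP1α KO and between 258 and 370 CPM in HP1γ KO, and markers of red cells (3 of 3 found) to between 20.7 and 114 CPM and between 51.0 and 729 CPM. The part of either in these differences was not tested.

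The difference between the 2 knockout effects was tested as an interaction over all 16 samples. It called 0 of 124 members, against 0.0317% of 15776 genes, with 14 members at an unadjusted p under 0.05 (11.3%, against 9.58% of all genes), while DESeq2 called 1, Rpl35a-ps3. The median of the 124 was 0.31, with 17 below 0, and that of the ribosomal protein genes 0.29, with all 79 above 0 and 0 at an adjusted p under 0.05. With samples left out, 6 to 20 members had an unadjusted p under 0.05. There were 20 of 124 without HP1α KO replicate 1 (1381 of 16083 genes) and 6 of 124 without HP1α KO replicate 3 (1498 of 16036 genes). There were 7 of 125 without HP1γ WT replicate 1 (1424 of 16093 genes) and without HP1α WT replicate 3 (1534 of 16130 genes). Without HP1γ KO replicate 1 there were 8 of 125 (1152 of 16066 genes). The interaction rests on the same samples as the comparisons above.

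**Figure D5:**
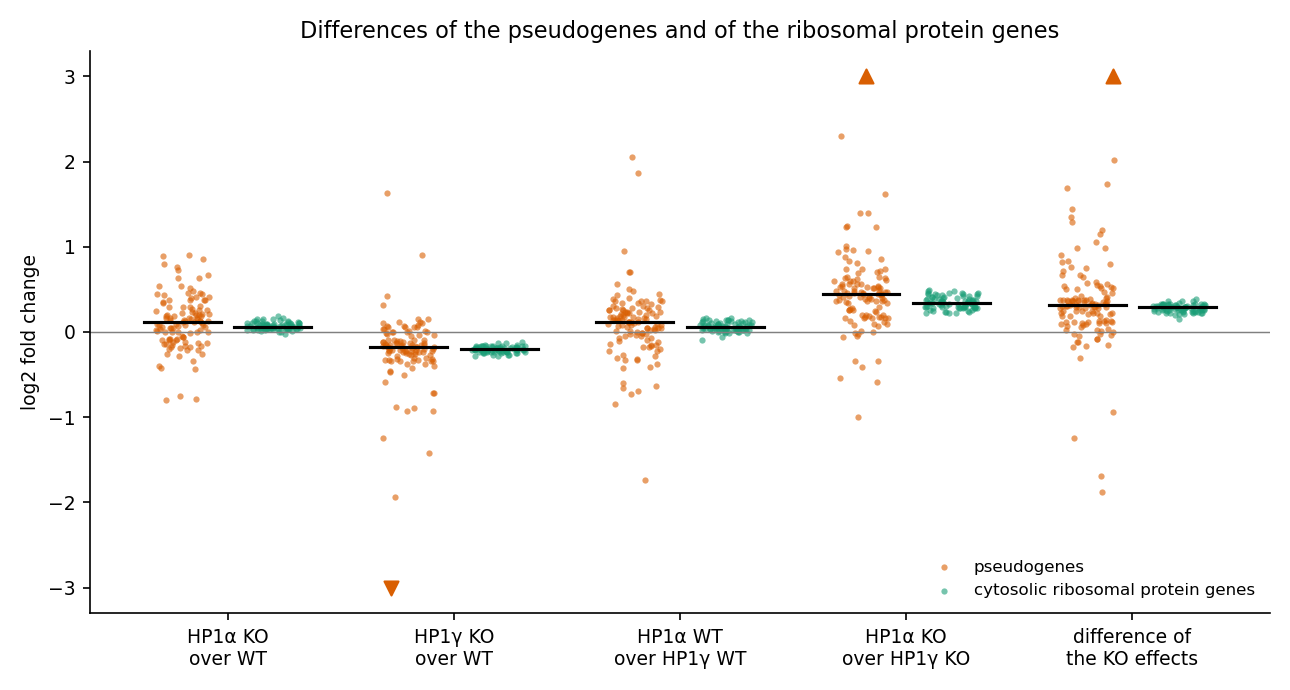
Log2 fold change of each pseudogene that passed the filter (orange) and of the 79 cytosolic ribosomal protein genes (green) in the 4 comparisons of groups and in the difference of the KO effects (HP1α minus HP1γ), with the median as a black line. Triangles mark Rpl35a-ps3 beyond the axis. The medians of both kinds are -0.18 and -0.20 for HP1γ KO over WT and 0.44 and 0.34 for HP1α KO over HP1γ KO.

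Summed over all 131 members, the level was 766 ± 70.6 CPM in HP1α KO, 729 ± 73.9 in HP1α WT, 520 ± 30.2 in HP1γ KO and 599 ± 58.2 in HP1γ WT (mean ± SD, n = 4 each). HP1α KO (721 to 871 CPM) and HP1γ KO (488 to 551 CPM) did not overlap, whereas the WT groups did (662 to 830 and 564 to 686 CPM). The parents summed to 49036 ± 3230, 46936 ± 2440, 38472 ± 1570 and 45067 ± 3910 CPM in the same order. The members were thus 1.54 ± 0.053%, 1.53 ± 0.118%, 1.34 ± 0.094% and 1.31 ± 0.094% of the members and parents together.

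The lines came closer in that share when Rps7-ps3 was left out, a choice made after seeing the data. It was then 1.35 ± 0.0635% in HP1α KO, 1.34 ± 0.0218% in HP1α WT, 1.29 ± 0.0926% in HP1γ KO and 1.27 ± 0.0926% in HP1γ WT, and the ranges overlapped between lines (1.29% to 1.42% and 1.32% to 1.36% against 1.15% to 1.35% and 1.14% to 1.34%). Among the 65 members with a mean of at least 1 CPM the coefficient of variation over the 16 samples had a median of 18.9% (from 10.5% to 106%), beside 11.1% (from 8.48% to 15.5%) for the parents. The highest of these was that of Rpl35a-ps3.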

How the data were processed

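RNA-Seq of memory CD4+ T cells was analysed in 16 samples, grouped by the titles and genotypes of the labels. The treatment label, which names a cell transfer, was left aside because the study describes sorted memory cells. The authors aligned reads to GRCm39 with STAR and quantified them with Salmon, and deposited estimated counts per gene, not normalized and not always whole (95.0% of the values of the pseudogenes are not). The authors also deposited TPM, which keep no depth. How reads shared by copies are divided therefore rests on Salmon's model. Coordinates and sequences come from a GENCODE annotation of GRCm39, not the release counted on, and symbols are those of the table (Rpl39-ps is Rpl39-ps1 there).

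Counts were rounded and tested with edgeR 4.0.16 in R 4.3.3 (TMM, filterByExpr with a minimum count of 10, quasi-likelihood test, Benjamini-Hochberg over all genes), each comparison in a fit of its 8 samples and the interaction over 16. A gene was called at an adjusted p under 0.05 and a log2 fold change beyond 1. Single values are CPM after TMM over 16 samples. Coding sequences were aligned with blastn 2.17.0. Alternatives were DESeq2 1.42.0, RLE factors, other filters, all samples in 1 fit, the replicate number as a block, limma 3.58.1 on log2(TPM + 1), other limits and omission of each sample. On data simulated for HP1γ KO against WT, 200 of 14808 genes changed by 2 on the log2 scale were all found (100%) with 0.498% false calls. The changed genes were drawn from those above 2 CPM, with the same dispersion for every gene and no reads shared between copies. The median of the members was 0.884 CPM. The simulation therefore does not show how well changes of weak or identical members are found.

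Named members were those called, the 10 all-or-none ones with the highest counts, those all-or-none by line or genotype, and the 5 highest in CPM and in share of the parent's TPM. Genes outside this rule that are named (Rps12-ps26 and those listed by biotype) were chosen after their values were seen. Members and lists were chosen with earlier results of these data known.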

Additional observations from a re-analysis of the deposited data

Results flagged for a closer look

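Within a group of 4 samples, a value was set apart where its gap to the nearest other sample took up more of the group's range than Dixon's limit for 4 samples. This was the case in 9 of 77 groups tested over the named members, and chance gives about 1 in 20. Of the 9, 6 belong to members named because they switch between 0 and high counts, so the rate is no comparison with chance. HP1γ WT replicate 1 was set apart for Rpl7a-ps11, Rps19-ps1, Rps19-ps2, Rpl17-ps8 and Rpsa-ps10. The values of Rps19-ps1 and Rps19-ps2, which are identical in sequence, are not independent of each other. None of these values was tested for a cause, and each member is among those described above.

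Rpl7a-ps11 was at 3.26 CPM in HP1α WT replicate 4 and at 3.77 CPM in HP1γ WT replicate 1, with the other 3 samples of either group at 0. Rps19-ps1 was at 0 CPM in HP1γ WT replicate 1, with the others between 1.70 and 1.99 CPM. Its identical copy Rps19-ps2 was at 1.90 CPM in the same sample with the others at 0, and at 2.00 CPM in HP1α KO replicate 1 with the others at 0. Rpl30-ps9 was at 1.04 CPM in HP1γ KO replicate 1 with the others at 0.

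Among abundant members, Rpl17-ps8 was at 114 CPM in HP1γ WT replicate 1 against 95.1 to 95.9 CPM in the others. Rpsa-ps10 was at 32.8 CPM in HP1α KO replicate 3 against 22.3 to 23.5 CPM, and at 25.8 CPM in HP1γ WT replicate 1 against 20.5 to 21 CPM. The ribosomal protein genes summed to 76951 CPM in HP1γ WT replicate 1 and to 85646 CPM in HP1α KO replicate 3, the highest of their groups.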

How the results depend on the processing

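The number of members called in HP1γ KO against WT was 1. It became 2 with DESeq2, where 97 of 27308 genes were called. It was 0 with at least 10 counts in every sample (18 of 13403 genes), which removes Rpl35a-ps3, and 0 with identical copies summed (34 of 14972 genes). With samples left out it was 1 to 2 (2 without HP1γ KO replicate 1, with 23 of 15266 genes called). Between the WT groups it was 0 to 1 with samples left out (0 without HP1γ WT replicate 2, with 137 of 15065 genes called). Between the KO groups the 5 became 3 with DESeq2 (797 of 27270 genes called) and with no filter (817 of 27270). They were also 3 with the replicate block (592 of 15020) and with limma on log2(TPM + 1) (278 of 15020). There was 1 with at least 10 counts in every sample (471 of 13296), and 24 with the adjusted p alone (4921 of 15020). With samples left out there were 3 to 6 (3 without HP1α KO replicate 4, with 652 of 15261 genes called, and 6 without HP1γ KO replicate 3, with 793 of 15481). The interaction gave 1 call in place of 0 with DESeq2 (38 of 29248 genes called) and with no filter (11 of 29248). For HP1α KO against WT the count was 0 under every alternative run. Few genes were called there at all, such as 2 of 26997 with DESeq2, 1 of 26997 with no filter and 3 of 15178 without HP1α WT replicate 3. With limits of 10 and 100 counts, 5 members were all-or-none by sample and 0 by genotype. The counts over all genes at these limits are not given here, so the 5 are a description only. Summed levels in TPM, another scale, were 3036, 2921, 2268 and 2459 in HP1α KO, HP1α WT, HP1γ KO and HP1γ WT. Of the 334 alternative values of single members, 308 kept direction and call, 21 lost the call and 5 turned direction: Rpl35a-ps2 between the KO groups (log2 fold changes of -0.19 without HP1α KO replicate 1 and -0.24 without HP1γ KO replicate 3, in a range up to 0.79) and Rpl35a-ps6 in HP1γ KO against WT (0.22, 0.23 and 0.39 without HP1γ KO replicates 1 and 2 and HP1γ WT replicate 1, in a range down to -1.46). The cause was not tested. Same-numbered samples deviated together only weakly (correlations from 0.09 to 0.23 in the HP1α line, 0.00 to 0.15 in the HP1γ line and -0.20 to 0.07 between lines), so the numbers were not taken to pair samples; 3 of 4 numbers in the HP1α line and 1 of 4 in the HP1γ line correlated best with their own. With the block, 0 members were called for HP1α KO against WT (0 of 14881 genes) and 1 for HP1γ KO against WT (38 of 14975). Between the WT groups it left 1 member, Rps7-ps3 (edgeR adjusted p = 0.0497), with 125 of 14804 genes called in place of 282. The interaction stayed at 0 members, with 10 of 15776 genes called in place of 5. Reads of identical copies cannot be placed at any depth, and members under 1 CPM rest on few counts.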
